A study of Mus musculus with 9 samples.

Results

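Enzymes that process foreign compounds were described in mouse lung from 7 gene families: cytochromes P450 (Cyp), soluble glutathione S-transferases (Gst), microsomal glutathione S-transferases (Mgst), UDP-glucuronosyltransferases (Ugt), sulfotransferases (Sult), flavin-containing monooxygenases (Fmo) and aldehyde dehydrogenases (Aldh). They were picked by gene symbol from a count table of 21983 genes, with Cyp2f2 left out because it served as a marker of club cells. Of 195 matching symbols, 89 had at least 10 counts in at least 3 of the 9 libraries and are the members described here. These are 36 Cyp, 16 Gst, 3 Mgst, 3 Ugt, 6 Sult, 6 Fmo and 19 Aldh genes. The symbols also bring in enzymes of the body's own sterol, retinoid, fatty acid and amino acid metabolism, some of which are named as such below.

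The 9 libraries were made from lung RNA of BALB/c mice, which are inbred, and fall into 3 groups of 3. The BSYQF group were asthmatic mice that received the Bu-Shen-Yi-Qi formula (an herbal mixture) by mouth from day 14 at 20 g of raw herbs per kg for 6 weeks. The asthma group were asthmatic mice given saline by mouth from the same day, and the control group were normal mice given saline in the same way. The study's title calls the asthma chronic. The labels give neither the agent that induced the asthma, nor age or sex, nor whether each library came from a separate mouse, so the spread that the p-values measure is that of these libraries and could be technical.

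Foreign chemicals are commonly cleared in steps. Oxidases such as the cytochromes P450 and the flavin-containing monooxygenases introduce or expose a reactive group, aldehyde dehydrogenases oxidise aldehydes to acids, and transferases then attach glutathione, glucuronic acid or sulfate so that transporters can export the product. In lung these enzymes are concentrated in the club cells of the small airways, with others in alveolar, endothelial and stromal cells, and Cyp1a1 is the textbook target of the aryl hydrocarbon receptor. In RNA from whole lung, fewer cells of a type and less RNA per cell cannot be told apart.

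Levels are given in CPM, the usual per-million scale of a gene's counts in its library, after TMM scaling (a correction for library composition). Total counts were 16286385 to 22819199 per library, so that 3 counts correspond to 0.134 to 0.202 CPM, and 14739 genes, among them 88 of the 89 members, had enough counts to be tested. A difference is given as a log2 fold change ± SE, and a gene was called where its Benjamini-Hochberg adjusted p over all tested genes was under 0.05 in edgeR's quasi-likelihood test. On the first principal component of all tested genes, which held 51.6% of the variance, BSYQF replicates 1 to 3 lay at −40.5, −1.20 and 19.6, asthma replicates 1 to 3 at −51.9, −76.0 and −1.77, and control replicates 1 to 3 at 51.9, 56.7 and 43.2. BSYQF replicate 1 and asthma replicate 3 were thus each removed from their own group's remaining libraries. Calls of named members that change when either is left out are given beside the result.

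Of the 106 matching symbols that missed the count minimum, 64 had no count in any library. Cyp2b19 stood just inside the minimum, with 2, 7 and 9 counts in BSYQF lungs, 3, 10 and 15 in asthma lungs and 16, 0 and 8 in control lungs. Cyp2a4 stood just outside, with 6, 8 and 4 counts in BSYQF lungs, 9, 5 and 20 in asthma lungs and 1, 7 and 12 in control lungs. The pi-class transferases Gstp1, Gstp2 and Gstp3 were listed at 0 in every library. Of their 50-base windows, 33.7% for Gstp1, 54.3% for Gstp2 and 0% for Gstp3 also occur in transcripts of other genes. Neither the annotation used for counting nor the handling of reads with several matches is given in the sources used here. The zeros are therefore not read as absence of these transcripts from lung. Aldh3b2 was the member not tested, with 0 to 29 counts in BSYQF lungs, 0 to 7 in asthma lungs and 8 to 34 in control lungs.

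Per kilobase of exon, a scale on which genes can be compared, Aldh1a1 had the highest mean level of the tested members in control lungs, at 333 CPM per kb. Aldh1a1 oxidises retinaldehyde and other aldehydes. It was followed by Cyp4b1, a lung P450 that activates furans, at 291 CPM per kb, Gstm1, a mu-class transferase, at 291, and Fmo2, the main flavin-containing monooxygenase of lung, at 279.9. Next came Aldh2, the mitochondrial enzyme that oxidises acetaldehyde, at 217, Cyp2b10, the P450 induced by phenobarbital, at 177, and Mgst1, a membrane-bound transferase and peroxidase, at 141. Over the 9 libraries each of these ranges overlapped that of its neighbour in the order. In asthma lungs the mean level was 211 CPM per kb for Mgst1 and 97.2 for Fmo2, against 141 for Mgst1 and 279.9 for Fmo2 in control lungs.

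Setting asthma against control addresses how lungs of the asthma model differ from normal lungs. Among the 88 tested members 13 were called, 7 higher and 6 lower in asthma lungs, which is 14.8% of them, while 12.7% of all tested genes were called (8.23% higher and 4.45% lower). The share of called members was thus near that of all genes. The 2 groups did not overlap for 30 members, 12 higher and 18 lower, or 34.1%, against 40.4% of all genes. The median log2 fold change was −0.23 over the members and 0.02 over all tested genes. The 7 that rose were Cyp7b1, Aldh18a1, Cyp51, Gsto1, Cyp4f16, Mgst2 and Aldh3b1. The 6 that fell were Cyp4a12b, Cyp1a1, Sult1d1, Cyp27a1, Fmo1 and Gstm1.

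**Figure D1:**
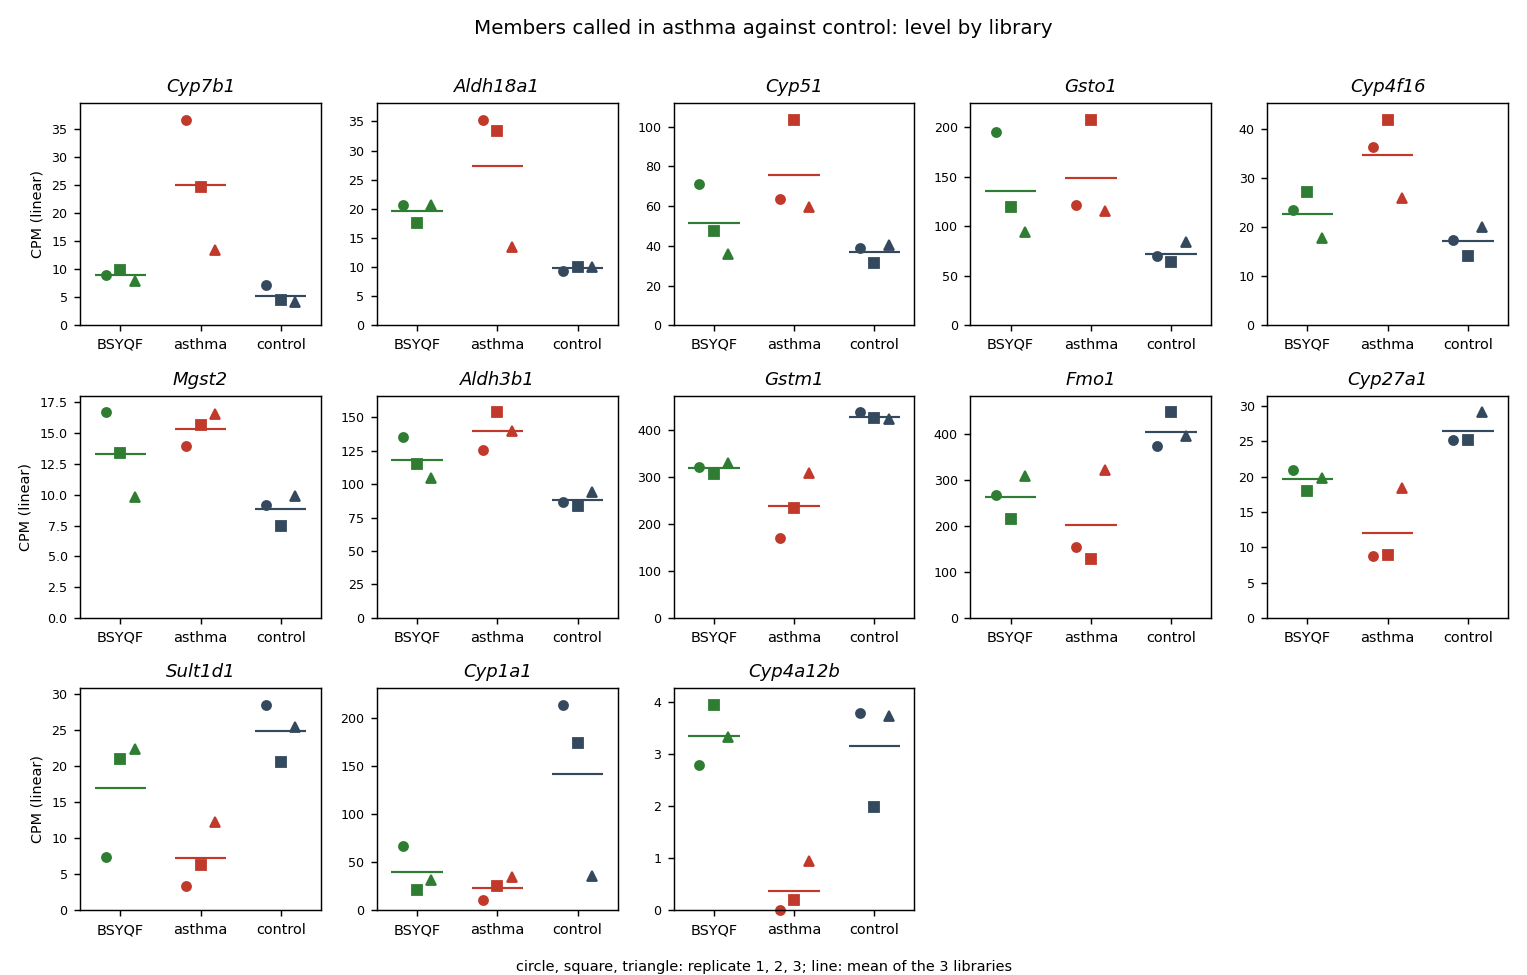
Level of the 13 members called in asthma against control, in CPM on linear axes from 0, for the 3 libraries of each group, with the mean as a line. The first 7 panels are higher and the last 6 lower in asthma than in control lungs with no overlap of these groups; asthma replicate 3 (triangle) lies nearest the control mean in all 6 that fell and in 5 of the 7 that rose.

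Among P450s grouped here under aryl hydrocarbon and drug metabolism, 1 of 16 was called, Cyp1a1, which oxidises polycyclic aromatic hydrocarbons. The P450 groups used here are broad, and not every gene in a group has the role named. Cyp1a1 (chromosome 9, 57687928 to 57703824, plus strand) had 11.1, 25.2 and 34.4 CPM in asthma lungs, against 214, 174 and 35.5 CPM in control lungs. Control replicate 3 was far below the other controls and close to asthma replicate 3, although the groups did not overlap. Its log2 fold change was −2.58 ± 0.69 (edgeR's quasi-likelihood test, adjusted p = 0.0429). It was not called by limma voom or without the filter on low counts. Cyp1b1, a related P450 that also oxidises estradiol, had 27.2, 20.4 and 24.2 CPM in asthma lungs, against 24.3, 10 and 10.96 CPM in control lungs, where control replicate 1 lay within the asthma range (log2 fold change 0.67 ± 0.34, adjusted p = 0.183).

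The base run GCGTG is the core of the xenobiotic response element, to which the aryl hydrocarbon receptor binds together with its partner Arnt. A RefSeq promoter window was found for 69 of the 89 members, and its 250 bases before the start site were searched on both strands. The run was present for 23 of the 69, or 33.3%, and for 30.9% of all genes with such a window. Of the called members with a window it was present for 3 of 6 that rose (Aldh18a1, Cyp4f16 and Cyp51) and 3 of 4 that fell (Cyp1a1, Gstm1 and Sult1d1). Sequence around the run is shown for 4 of them, a pair that fell and a pair that rose, so that its setting can be compared. Only the run itself was searched, without regard to the bases beside it, and receptor binding was not tested. A match is therefore not read as a receptor site. Bases are from RefSeq on GRCm38.p6, read 5′ to 3′ on the strand of the gene, with the run in capitals (CACGC is the same run on the other strand).
Cyp1a1, chr9:57697519-57697603, plus strand: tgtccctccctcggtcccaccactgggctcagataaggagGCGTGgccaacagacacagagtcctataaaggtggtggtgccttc
Gstm1, chr3:108018005-108018089, minus strand: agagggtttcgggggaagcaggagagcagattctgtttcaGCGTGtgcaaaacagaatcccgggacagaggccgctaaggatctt
Aldh18a1, chr19:40588470-40588554, minus strand: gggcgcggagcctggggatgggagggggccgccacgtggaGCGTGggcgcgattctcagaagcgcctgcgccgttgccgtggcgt
Cyp4f16, chr17:32536307-32536377, plus strand: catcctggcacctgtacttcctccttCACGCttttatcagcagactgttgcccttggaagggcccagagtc
The run lay 50 bases before the start site of Cyp1a1, 72 before that of Gstm1, 47 before that of Aldh18a1 and 220 before that of Cyp4f16. Aldh18a1 held the run at 2 further places, 1 and 198 bases before its start site, and the run shown for Gstm1 lay 227 bases before a second start site of that gene. The core of the antioxidant response element, TGACNNNGC, was present for 8 of the 69 members, or 11.6%, against 11.5% of all genes, and for 0 of the called members. The sterol regulatory element core TCACNCCAC was present for 3 of the 69, or 4.35%, against 1.22% of all genes, and likewise for 0 of the called members. Only this exact pattern was searched, so the 0 does not mean that called members such as Cyp51 lack a sterol regulatory element of another form.

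No other P450 of this group was called by edgeR's main test, while DESeq2 called Cyp2d22, Cyp2e1 and Cyp2c23. Cyp2e1, which oxidises ethanol and small solvents, had 1.19, 1.01 and 8.11 CPM in asthma lungs, against 112, 11.2 and 13.2 CPM in control lungs. All 3 asthma libraries were below all 3 controls, but control replicate 1 alone held most of the control mean (log2 fold change −3.67 ± 1.24, adjusted p = 0.0787). The log2 fold change was −1.78 without control replicate 1 and −5.37 without asthma replicate 3, called in neither fit, and DESeq2 gave −3.74 (adjusted p = 0.0196). Cyp2b10 had 134, 114 and 385 CPM in asthma lungs, against 510, 317 and 296 CPM in control lungs, with asthma replicate 3 inside the control range (log2 fold change −0.83 ± 0.45, adjusted p = 0.217). Without that library it was −1.61 and called (adjusted p = 0.00648). Cyp2s1, an airway P450, had 115, 189 and 209.5 CPM in asthma lungs, against 138, 113 and 157 CPM in control lungs, and these ranges overlapped.

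In the Cyp4 group, which hydroxylates fatty acids and eicosanoids, 2 of 10 members were called, in opposite directions. Cyp4f16 (chromosome 17, 32536558 to 32551798, plus strand) had 36.2, 41.9 and 25.9 CPM in asthma lungs, against 17.3, 14.2 and 20.1 CPM in control lungs. Every asthma library was above every control, and Cyp4f16 rose by 1.01 ± 0.23 on the log2 scale (adjusted p = 0.0237). Cyp4a12b (chromosome 4, 115411624 to 115439034, plus strand) had 0, 3 and 21 counts in asthma lungs, against 70, 34 and 70 counts in control lungs. The groups did not overlap at these low counts, and Cyp4a12b fell by 2.95 ± 0.78 (adjusted p = 0.0381), and by 4.99 without asthma replicate 3. Cyp4a12b is uncertain as a gene, since 49.5% of its 50-base windows occur in transcripts of other genes, and its close copy Cyp4a12a was listed at 0 in every library. For Cyp4f16 the share of such windows was 17.4%. Cyp4b1, the most abundant P450 member per length, had 232, 221 and 858 CPM in asthma lungs, against 832, 574 and 562 CPM in control lungs, so that asthma replicate 3 was above every control (log2 fold change −0.59 ± 0.47, adjusted p = 0.402). Without that library it was −1.55 and called (adjusted p = 0.00272).

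Of 10 P450s grouped here under sterol, steroid and retinoid metabolism, 3 were called. Cyp7b1 (chromosome 3, 18071950 to 18243338, minus strand), which hydroxylates oxysterols, had 36.7, 24.7 and 13.4 CPM in asthma lungs, against 7.19, 4.45 and 4.15 CPM in control lungs. It averaged 24.9 ± 11.6 CPM in asthma lungs and 5.26 ± 1.67 CPM in control lungs (SD, n = 3 each). The lowest asthma library was above the highest control, and Cyp7b1 rose by 2.24 ± 0.35 (adjusted p = 0.00873). Cyp51 (chromosome 5, 4081145 to 4104746, minus strand), the lanosterol demethylase of cholesterol synthesis, had 63.7, 104 and 59.6 CPM in asthma lungs, against 38.9, 31.2 and 40.5 CPM in control lungs. It rose by 1.03 ± 0.27 with no overlap (adjusted p = 0.0367). Cyp27a1 (chromosome 1, 74713574 to 74737892, plus strand), the mitochondrial enzyme that hydroxylates the sterol side chain, had 8.72, 8.87 and 18.4 CPM in asthma lungs, against 25.2, 25.2 and 29.1 CPM in control lungs. It fell by 1.14 ± 0.27, with every asthma library below every control (adjusted p = 0.0272).

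Of the 6 flavin-containing monooxygenases, which add oxygen to nitrogen and sulfur atoms of drugs, 1 was called. Fmo1 (chromosome 1, 162829561 to 162866610, minus strand) had 154, 128 and 322 CPM in asthma lungs, against 374, 448 and 395 CPM in control lungs. It fell by 1.01 ± 0.30 (adjusted p = 0.0494), with asthma replicate 3 well above the other asthma libraries and still below the controls. Without that library it fell by 1.54. Fmo2 had 387, 260.2 and 988 CPM in asthma lungs, against 2449, 1296 and 964 CPM in control lungs. Asthma replicate 3 lay above the lowest control, and the log2 fold change of −1.53 ± 0.47 missed the threshold (adjusted p = 0.0563). It was called by limma voom (−1.68, adjusted p = 0.0482) and, at −2.29, without asthma replicate 3 (adjusted p = 0.00274). Fmo5, which converts ketones to esters, had 13.9, 14.3 and 34.7 CPM in asthma lungs, against 43.4, 41.2 and 37.4 CPM in control lungs, with no overlap (log2 fold change −0.95 ± 0.30, adjusted p = 0.0612). It was called by DESeq2 (adjusted p = 0.0176), by limma voom (adjusted p = 0.0499) and, at −1.54, without asthma replicate 3 (adjusted p = 0.000485). Of the family's 6 log2 fold changes 5 were below 0, with a median of −0.98. Summed over the family the level was 575, 440.5 and 1427 CPM in asthma lungs, against 2956, 1839 and 1460 CPM in control lungs, of which Fmo2 made up the largest share in every library.

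Of 18 tested aldehyde dehydrogenases 2 were called, both higher. Aldh18a1 (chromosome 19, 40550257 to 40588463, minus strand), which makes the precursor of proline from glutamate and is no enzyme of foreign compounds, had 35.3, 33.4 and 13.4 CPM in asthma lungs, against 9.35, 10.1 and 9.95 CPM in control lungs. It rose by 1.48 ± 0.31 (adjusted p = 0.0182), with asthma replicate 3 far nearer the controls than the other asthma libraries. Aldh3b1 (chromosome 19, 3913491 to 3929808, minus strand), which oxidises aldehydes derived from lipids, had 125, 154 and 139.5 CPM in asthma lungs, against 86.3, 83.9 and 94.3 CPM in control lungs. It rose by 0.66 ± 0.14 (adjusted p = 0.0211). Aldh1a1 had 878, 1035 and 1811 CPM in asthma lungs, against 2260, 1210 and 1456 CPM in control lungs, and these ranges overlapped (log2 fold change −0.40 ± 0.30, adjusted p = 0.367). Aldh2 had 590, 445 and 965 CPM in asthma lungs, against 1302, 1083 and 954 CPM in control lungs, with asthma replicate 3 inside the control range (log2 fold change −0.74 ± 0.27, adjusted p = 0.0821). DESeq2 called Aldh2 (adjusted p = 0.0239), and without asthma replicate 3 edgeR called both Aldh1a1 (−0.79, adjusted p = 0.0418) and Aldh2 (−1.12, adjusted p = 0.00412). Aldh3a1, known from cornea and airway epithelium, had 8.26, 15.8 and 22.6 CPM in asthma lungs, against 18.5, 13.9 and 22.0 CPM in control lungs.

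Of the 16 soluble glutathione S-transferases 2 were called, in opposite directions, and 8 log2 fold changes were above and 8 below 0. Gstm1 (chromosome 3, 108012255 to 108017973, minus strand), which conjugates electrophiles with glutathione, had 171, 234 and 308 CPM in asthma lungs, against 438, 424 and 423 CPM in control lungs. The controls lay close together and above every asthma library, and Gstm1 fell by 0.85 ± 0.19 (adjusted p = 0.0245). It is a member of a gene cluster, and 18.9% of its 50-base windows occur in transcripts of other genes. Gsto1 (chromosome 19, 47854970 to 47864790, plus strand), an omega-class enzyme that reduces disulfides and dehydroascorbate, had 122, 208 and 115 CPM in asthma lungs, against 69.9, 63.7 and 84.0 CPM in control lungs. It rose by 1.03 ± 0.29 with no overlap (adjusted p = 0.0432). Gsta4, which conjugates hydroxynonenal from oxidised lipids, had 121, 152.1 and 163 CPM in asthma lungs, against 142, 99.5 and 118 CPM in control lungs. Gsta3, a related alpha-class enzyme, had 82.4, 55.9 and 210.4 CPM in asthma lungs, against 312, 166 and 145 CPM in control lungs, with asthma replicate 3 inside the control range (log2 fold change −0.84 ± 0.45, adjusted p = 0.211). Without that library it was −1.60 and called (adjusted p = 0.00612).

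Of the 3 microsomal transferases 1 was called. Mgst2 (chromosome 3, 51660360 to 51682677, plus strand), which can also make leukotriene C4, had 13.9, 15.7 and 16.5 CPM in asthma lungs, against 9.19, 7.43 and 9.90 CPM in control lungs. It rose by 0.80 ± 0.23 (adjusted p = 0.0464), and here asthma replicate 3 was the library farthest from the controls. Without it the call was lost (0.73, adjusted p = 0.0549). Mgst1 had 349.7, 496 and 431 CPM in asthma lungs, against 291, 267 and 294 CPM in control lungs. All 3 asthma libraries were above all controls, but its log2 fold change of 0.58 ± 0.19 missed the threshold (adjusted p = 0.0660), while DESeq2 called it (adjusted p = 0.0295). Mgst3 had 32.5, 46.2 and 46.4 CPM in asthma lungs, against 49.8, 36.5 and 38.8 CPM in control lungs, and the ranges overlapped. The summed level of the 3 genes was 396 to 558 CPM in asthma lungs, against 311 to 350.1 CPM in control lungs.

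Of the 6 sulfotransferases 1 was called, and 5 of 6 log2 fold changes were below 0, with a median of −1.11. Sult1d1 (chromosome 5, 87554645 to 87569027, minus strand), which sulfonates catecholamines in mouse, had 3.34, 6.25 and 12.3 CPM in asthma lungs, against 28.5, 20.6 and 25.4 CPM in control lungs. It fell by 1.76 ± 0.47, with every asthma library below every control (adjusted p = 0.0391). Sult1a1, the phenol sulfotransferase and the family's most abundant member, had 23.4, 20.1 and 86.8 CPM in asthma lungs, against 99.3, 39.6 and 40.5 CPM in control lungs. Asthma replicate 3 was above control replicates 2 and 3, while the other asthma libraries were below all controls (log2 fold change −0.46 ± 0.56, adjusted p = 0.596). It was −1.47 and called without asthma replicate 3 (adjusted p = 0.0239), and 0.12 without control replicate 1. Sult1c1 had 2, 2 and 5 counts in asthma lungs, against 6, 49 and 17 counts in control lungs, and was called by DESeq2 (adjusted p = 0.0281) but not by edgeR (adjusted p = 0.105).

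No glucuronosyltransferase was called, and all 3 members were low. Ugt1a7c had 3.06, 1.75 and 3.05 CPM in asthma lungs, against 4.38, 4.21 and 1.86 CPM in control lungs. The Ugt1a genes share their last exons, and 54.6% of the exon bases of Ugt1a7c overlap other coding genes, so its counts are uncertain. Ugt8a, which makes galactosylceramide of myelin and is no enzyme of foreign compounds, had 2.43, 1.21 and 2.15 CPM in asthma lungs, against 3.35, 2.63 and 4.10 CPM in control lungs (log2 fold change −0.79 ± 0.47, adjusted p = 0.251).

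**Figure D2:**
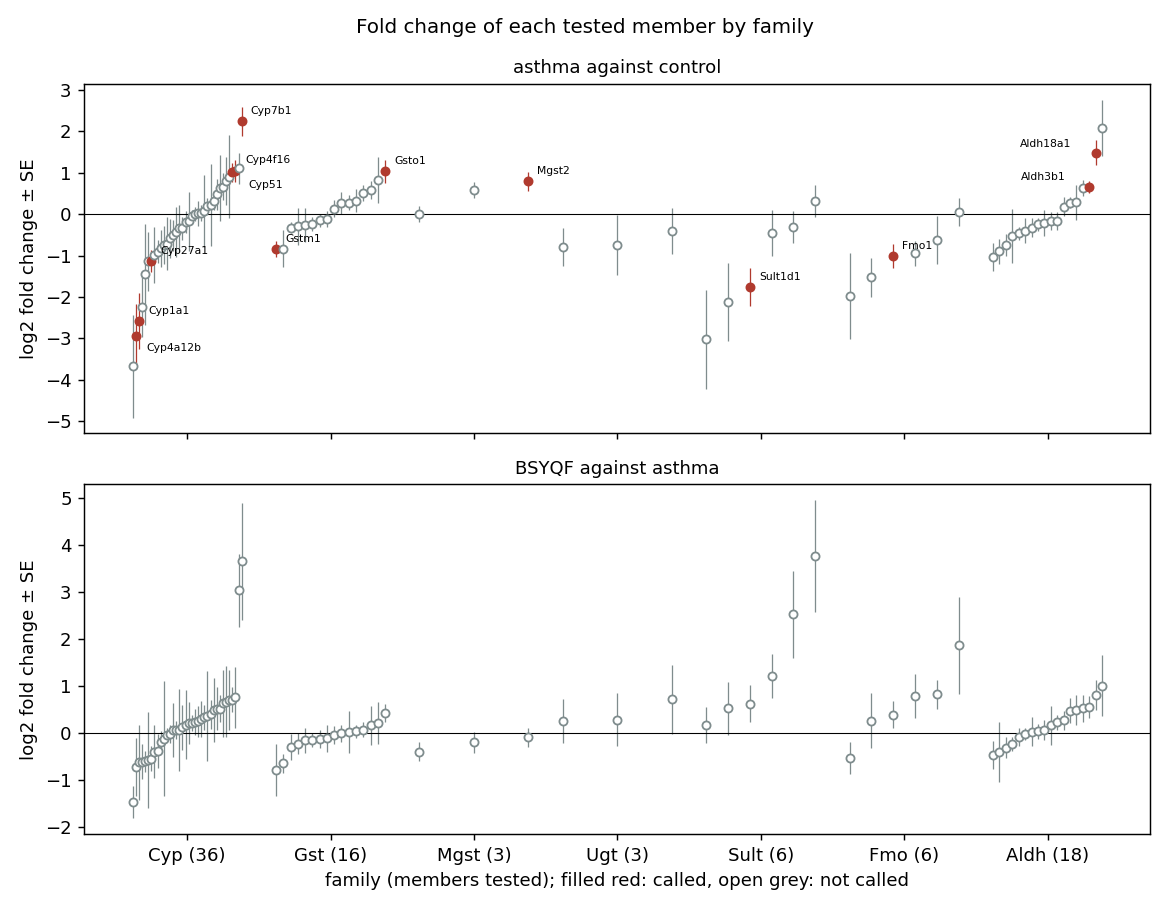
Log2 fold change ± SE of each of the 88 tested members, ordered by size within its family, for asthma against control (top) and BSYQF against asthma (bottom); filled points are called. The top panel holds 13 called members, spread over all families except Ugt, and the bottom panel 0.

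The count of called members in asthma against control depended on single libraries. It was 28 without asthma replicate 3 (10 higher, 18 lower), 16 and 14 without BSYQF replicates 1 and 3, and 7 without BSYQF replicate 2. It was 2 each without control replicate 1 or 3, and 1 each without asthma replicate 1, asthma replicate 2 or control replicate 2. The count over all tested genes, 1869 with every library, moved in the same direction in each of these fits. It was 4262 without asthma replicate 3, 2646 and 2232 without BSYQF replicates 1 and 3, 944 without BSYQF replicate 2, 438 and 357 without control replicates 1 and 3, and 171, 248 and 182 without asthma replicate 1, asthma replicate 2 and control replicate 2. Cyp7b1 was called in all 9 fits that left out a library, and the other 12 in 2 to 5 of the 9. Aldh18a1, Gsto1, Mgst2 and Cyp1a1 were not called by limma voom. Summed over all members, the level was 5039, 5485 and 9040 CPM in asthma lungs, against 11750, 8269 and 7952 CPM in control lungs. Asthma replicates 1 and 2 were below every control and replicate 3 was above 2 of the 3. The authors' deposited table of asthma against control, limited by the authors to p-values under 0.05 and fold changes of 1 or more on the log2 scale in either direction, holds 17 members (6 higher and 11 lower), 9 of them called here. In the authors' deposited table Cyp7b1 has a log2 fold change of 2.22 and an adjusted p of 2.92e-07.

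**Figure D3:**
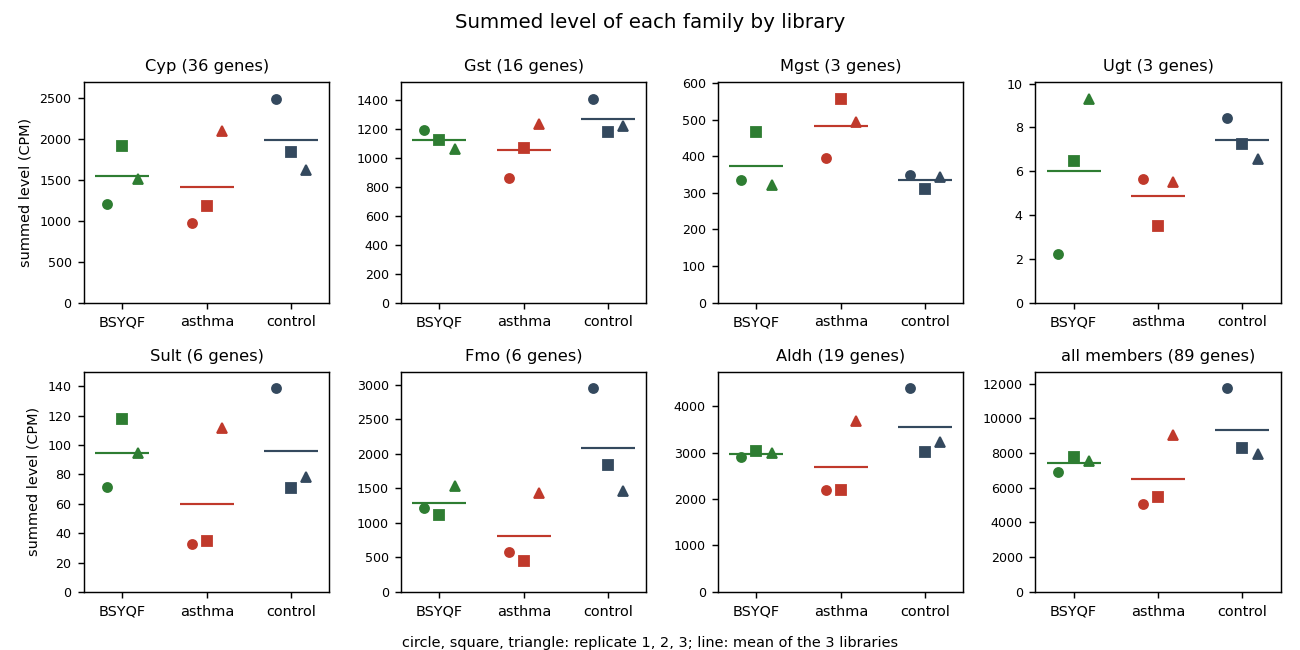
Level summed over the members of each family and over all 89, in CPM on linear axes from 0, for the 3 libraries of each group, with the mean as a line. In asthma lungs the summed Fmo level was 440.5 to 1427 CPM, below every control, and the summed Mgst level 396 to 558 CPM, above every control.

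Setting BSYQF against asthma addresses the effect of the formula in asthmatic lungs. With edgeR 0 of the 88 tested members were called, and 13 had an unadjusted p under 0.05. DESeq2 called 2 (Cyp7b1 and Cyp4a12b) and limma voom called 0. Here and below, counts with an unadjusted p under 0.05 are given without the share of all tested genes. They are therefore not read as a result about these genes. Of all tested genes 0.00678% were called. The groups did not overlap for 7 members, 5 higher and 2 lower in BSYQF lungs, or 7.95%, against 9.75% of all genes (4.99% higher and 4.76% lower), and the median log2 fold change was 0.16 over the members and −0.00 over all genes. Both comparisons use the same asthma libraries, so a value that is high or low there moves both fold changes.

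**Figure D4:**
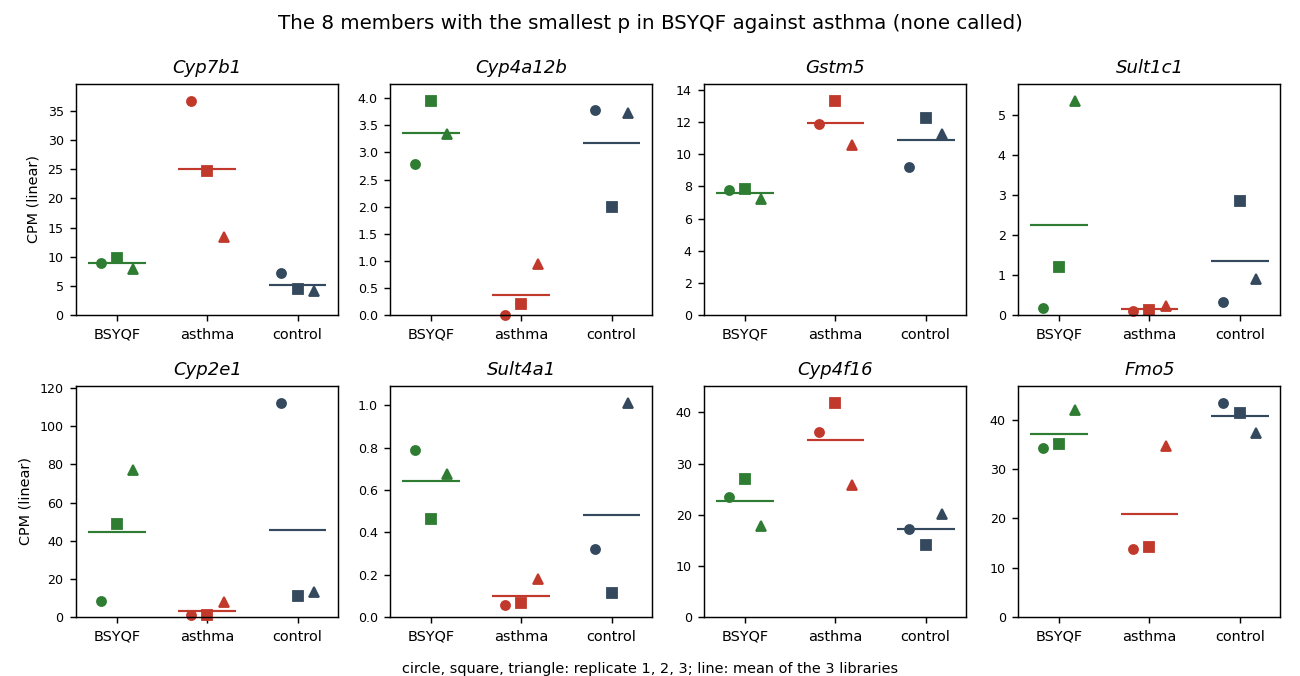
Level of the 8 members with the smallest p in BSYQF against asthma, in CPM on linear axes from 0, for the 3 libraries of each group, with the mean as a line. The BSYQF and asthma libraries do not overlap for Cyp7b1, Cyp4a12b, Gstm5, Cyp2e1 and Sult4a1; edgeR called none of the 8, while DESeq2 called Cyp4a12b and Cyp7b1.

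The smallest p belonged to Cyp7b1, which had 9.02, 9.82 and 7.91 CPM in BSYQF lungs, against 36.7, 24.7 and 13.4 CPM in asthma lungs. Every BSYQF library was below every asthma library, yet the log2 fold change of −1.48 ± 0.34 had an adjusted p of 0.305 in edgeR's test. In the authors' deposited table of this comparison it is the member listed with an adjusted p under 0.05 (log2 fold change −1.47, adjusted p = 0.0122). Cyp4a12b had 46, 68 and 64 counts in BSYQF lungs, against 0, 3 and 21 counts in asthma lungs (log2 fold change 3.03 ± 0.78, adjusted p = 0.380). Gstm5, a mu-class transferase, had 7.75, 7.84 and 7.23 CPM in BSYQF lungs, against 11.9, 13.3 and 10.6 CPM in asthma lungs, with no overlap (log2 fold change −0.65 ± 0.20, adjusted p = 0.542).

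Cyp2e1 had 8.66, 48.9 and 76.8 CPM in BSYQF lungs, against 1.19, 1.01 and 8.11 CPM in asthma lungs, where BSYQF replicate 1 was just above the highest asthma library (log2 fold change 3.65 ± 1.24, adjusted p = 0.579). The low sulfotransferases Sult1c1 and Sult4a1 had 3, 21 and 103 counts and 13, 8 and 13 counts in BSYQF lungs, against 2, 2 and 5 counts and 1, 1 and 4 counts in asthma lungs. Their log2 fold changes of 3.76 ± 1.19 and 2.52 ± 0.93 had adjusted p-values of 0.545 and 0.587 in edgeR's test, and for Sult1c1 BSYQF replicate 3 gave most of the counts. Cyp4f16 had 23.4, 27.1 and 17.8 CPM in BSYQF lungs, against 36.2, 41.9 and 25.9 CPM in asthma lungs, and Fmo5 had 34.1, 35.0 and 41.9 CPM in BSYQF lungs, against 13.9, 14.3 and 34.7 CPM in asthma lungs. Both overlapped in 1 library (log2 fold changes −0.61 ± 0.23 and 0.81 ± 0.30, each with an adjusted p of 0.587).

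Without asthma replicate 3 the count called was 5: Fmo5 (log2 fold change 1.40), Cyp7b1 (−1.78), Cyp27a1 (1.16), Cyp4a12b (5.06) and Cyp2d22 (0.99), while the count over all tested genes was 114, against 1 with every library. Without any other single library, BSYQF replicate 1 included, it was 0. Cyp27a1 had 21.01, 18.01 and 19.8 CPM in BSYQF lungs, against 8.72, 8.87 and 18.4 CPM in asthma lungs, where asthma replicate 3 lay within the BSYQF range.

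Setting BSYQF against control addresses how treated asthmatic lungs differed from normal ones. With edgeR 0 of 88 members were called, 10 had an unadjusted p under 0.05, DESeq2 called 2 (Aldh18a1 and Gsto1) and limma voom called 0. Of all tested genes 1.67% were called (1.63% higher and 0.0407% lower). The groups did not overlap for 17 members, 7 higher and 10 lower, or 19.3%, against 24.8% of all genes. Aldh18a1 had 20.7, 17.6 and 20.7 CPM in BSYQF lungs, against 9.35, 10.1 and 9.95 CPM in control lungs, with no overlap (log2 fold change 1.01 ± 0.30, adjusted p = 0.137). Without asthma replicate 3, which enters the estimate of the spread, it was called. Gsto1 had 195, 119.6 and 94.0 CPM in BSYQF lungs, against 69.9, 63.7 and 84.0 CPM in control lungs (log2 fold change 0.91 ± 0.29, adjusted p = 0.158). BSYQF replicate 1 was the highest, and without it the log2 fold change was 0.55 (adjusted p = 0.480).

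For all members called in asthma against control except Cyp4a12b, the mean in BSYQF lungs lay between those of the other groups. These members were picked for a difference between asthma and control. A further group is then likely to lie between them by that choice alone, and an effect of the formula cannot be read from it. Some of them are given as examples. Gstm1 had 321, 307 and 329.7 CPM in BSYQF lungs, below every control, while asthma replicate 3 (308 CPM) lay within this range (log2 fold change −0.42 ± 0.19 against control, adjusted p = 0.319). Fmo1 had 267, 214 and 308 CPM in BSYQF lungs, against 374, 448 and 395 CPM in control lungs (log2 fold change −0.62 ± 0.30, adjusted p = 0.336). Cyp1a1 had 66.3, 21.03 and 31.9 CPM in BSYQF lungs, against 214, 174 and 35.5 CPM in control lungs, where BSYQF replicate 1 was above control replicate 3 (log2 fold change −1.83 ± 0.67, adjusted p = 0.228). Sult1d1 had 7.45, 20.9 and 22.3 CPM in BSYQF lungs, against 28.5, 20.6 and 25.4 CPM in control lungs. BSYQF replicate 1, which stood apart over all genes, was below every control for Sult1d1, and the other 2 BSYQF libraries overlapped them.

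Of 12 tested genes of glutathione and thioredoxin metabolism, 6 rose in asthma lungs and 0 fell, with a median log2 fold change of 0.61. The share called was 50%, against 12.7% of all tested genes (8.23% higher). This list and those below were chosen with earlier results of these data known, so such contrasts are no independent support. The glutathione list is not limited to the synthesis of glutathione and holds genes that use it or break it down. Slc7a11, which imports cystine, had 59.8, 43.7 and 12.9 CPM in asthma lungs, against 3.35, 4.10 and 2.45 CPM in control lungs (log2 fold change 3.55 ± 0.50, adjusted p = 0.00687). Gclc, the catalytic subunit of the enzyme that limits glutathione synthesis, had 294, 275 and 193 CPM in asthma lungs, against 140.4, 134.5 and 134 CPM in control lungs (0.90 ± 0.17, adjusted p = 0.0139). The other 4 were the glutathione peroxidase Gpx2 (0.94), the glutamyltransferase Ggt5 (1.18), glutathione reductase Gsr (0.59) and thioredoxin reductase Txnrd1 (0.54). In BSYQF against asthma edgeR called 0 of the 12, and 7 had an unadjusted p under 0.05. In BSYQF against control 1 was called, Slc7a11 (2.32 ± 0.48, edgeR's adjusted p = 0.0392), or 8.33%, against 1.67% of all genes.

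Of 8 genes of P450 electron transfer and heme turnover 1 was called, or 12.5%, against 12.7% of all genes. It was the heme oxygenase Hmox1, which breaks down heme and is no redox partner of P450s. Hmox1 had 818, 551 and 122 CPM in asthma lungs, against 48.4, 30.2 and 29.5 CPM in control lungs. It rose by 3.79 ± 0.65 on the log2 scale (edgeR's adjusted p = 0.0120). Por, the reductase that supplies electrons to microsomal P450s, had 159, 194 and 306 CPM in asthma lungs, against 318, 356 and 312 CPM in control lungs, and was not called. Of 26 other enzymes of oxidation, reduction and hydrolysis 7 were called, or 26.9%, against 12.7% of all genes. The carbonyl-reducing enzymes Akr1b8 (1.24) and Cbr3 (0.58) rose, and the carboxylesterase Ces2g (−1.66), the epoxide hydrolase Ephx2 (−1.28), the monoamine oxidases Maob (−0.84) and Maoa (−0.70) and the alcohol dehydrogenase Adh1 (−0.57) fell. Of 13 tested transporters 2 were called, both lower, or 15.4%, against 12.7% of all genes (4.45% lower). These were the drug efflux pump Abcb1a (−1.16) and the organic anion transporter Slco3a1 (−0.61). Of 12 tested regulators and of 10 tested enzymes of other conjugations 0 were called with edgeR, and an unadjusted p under 0.05 was found for 3 and 2 of them. The aryl hydrocarbon receptor gene Ahr had 81.9, 56.0 and 78.0 CPM in asthma lungs, against 83.7, 137 and 103 CPM in control lungs, with no overlap (log2 fold change −0.58 ± 0.22, adjusted p = 0.0930). In BSYQF against asthma 0 of the regulators, electron transfer and heme genes, other enzymes of oxidation, reduction and hydrolysis, other conjugation enzymes and transporters were called with edgeR. An unadjusted p under 0.05 was found for 1, 2, 2, 1 and 2 of them.

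Markers of lung cell types differed between asthma and control lungs as well. Called higher in asthma were 2 of 8 club cell, 3 of 8 ciliated cell, all 6 goblet cell, all 4 interstitial macrophage and all 4 plasma cell markers. Called lower were 2 of 4 basal cell, 1 of 5 alveolar type 1, 1 of 6 endothelial, 1 of 6 fibroblast, 5 of 6 adipocyte and all 6 cardiac muscle markers. Of all tested genes 8.23% were called higher and 4.45% lower. In lists this short, 1 called gene alone exceeds these shares. Of the alveolar type 2, alveolar macrophage, mast cell, hepatocyte and olfactory and nasal markers 0 were called with edgeR, where 0, 1, 1, 0 and 0 had an unadjusted p under 0.05. Only 1 of 6 hepatocyte and 2 of 5 olfactory and nasal markers had enough counts to be tested. Summed alveolar macrophage markers were still 647 to 2389 CPM in asthma lungs, against 304 to 317 CPM in control lungs. Of these 5 markers 2 were higher and 0 lower with no overlap, and their median log2 fold change was 0.09. Of all tested genes 22.0% were higher and 18.4% lower in asthma than in control lungs with no overlap. Summed club cell markers were 32310 to 54560 CPM in asthma lungs, against 25380 to 37000 CPM in control lungs, and no club cell marker fell. Summed fibroblast markers were 1453 to 3565 CPM in asthma lungs, against 4511 to 5152 CPM in control lungs. Of these 6 markers 5 were lower and 1 was higher in asthma lungs, each with no overlap. Summed endothelial markers were 2265 to 3633 CPM in asthma lungs, against 3223 to 4452 CPM in control lungs. Adipocyte markers, summed, were at 2.49 to 15.3 CPM in asthma lungs, against 66.7 to 354 CPM in control lungs, highest in control replicate 1, as was Cyp2e1. Lep was at 0 in all 3 asthma libraries. In BSYQF lungs they were at 61.8 to 324 CPM, and cardiac muscle markers at 351 to 1210 CPM, against 78.2 to 158 CPM in asthma lungs and 356 to 807 CPM in control lungs. In BSYQF against asthma all 6 adipocyte and all 6 cardiac muscle markers were higher with no overlap, against 4.99% of all tested genes. Of these markers 0 were called, and over all marker lists 1 was called, the basal cell keratin Krt5. The part of these cell types in the differences of the members was not tested. Summed hepatocyte markers reached at most 2.11 CPM in any library, with Fgb at 0 in all, and olfactory and nasal markers 2.353 CPM, with Obp1a, Bpifb3 and Gng13 at 0 in all.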

How the data were processed

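Trizol was used to isolate lung RNA, and libraries were prepared with NEBNext Ultra from 3 µg of total RNA, per the labels' protocols. Tools named in the submitters' processing notes are FastQC, cutadapt, STAR, HTSeq and DESeq2, all unversioned, with mm10 as the build. No annotation, read layout or strand setting is given in the sources used here, so overlapping and antisense genes are uncertain. The main deposited file holds raw whole-number counts of 21983 gene symbols in the 9 libraries. Per the file headers, 3 tables by the authors give log2 fold changes and p-values for 1 comparison each, and are quoted only where named. Their 36 per-library columns were left aside.

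Counts were filtered with filterByExpr, scaled with TMM (factors 0.914 to 1.07) and fitted in R 4.3.3 with edgeR 4.0.16 (glmQLFit with robust estimation, glmQLFTest) in 1 model of the 3 groups with 3 libraries each. The biological coefficient of variation was 0.244. The SE is the size of the log2 fold change divided by the square root of F. Adjustment was Benjamini-Hochberg over 14739 genes. Alternatives were DESeq2 1.42.0, limma 3.58.1 (voom), RLE scaling, another dispersion method, no filter, a replicate block and leaving out each library. The scripts were tested on simulated counts. No pair of libraries in a group agreed within sampling noise.

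Coordinates and exon lengths are from GENCODE vM21 on GRCm38 (mm10), 1-based, and all 195 symbols matched 1 gene each. Promoters are from RefSeq on GRCm38.p6. The members, the marker lists and the pathway lists were chosen with earlier results of these data known. Members named with values were those called, the 8 with the smallest p in BSYQF against asthma, the 2 most abundant per family and a fixed list of 18 well-known enzymes. Members named beyond this (Aldh3b2, Cyp2a4, Cyp2b19, Cyp2c23, Cyp2d22, Cyp4a12a, Cyp26b1, Gstp2 and Gstp3) were chosen after their values were seen.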

Additional observations from a re-analysis of the deposited data

How the results depend on the processing

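The count of members called in asthma against control, 13, was 13 with RLE scaling, 14 with edgeR's newer dispersion method, 12 without the filter on low counts and 11 with limma voom (9 of them among the 13). It was 26 with DESeq2, which called all 13. With limma voom and robust moderation, an alternative chosen after seeing the data, it was 13. With the replicate number as a block it was again 13, of which 10 were among those called without the block, and the block left the counts in both other comparisons at 0. The deviations of same-numbered libraries from their group means correlated at −0.26 to 0.34 over 9 pairs, so the numbers were not taken to pair the libraries. In BSYQF against asthma and BSYQF against control the count of 0 became 2 in each with DESeq2 and was 0 with every other planned setting that kept all libraries. Leaving out 1 library gave 1 to 28 members called in asthma against control, 0 to 5 in BSYQF against asthma and 0 to 1 in BSYQF against control. No named member that was called changed sign under any alternative run. Genes at a few counts per library, such as Cyp4a12b, Sult1c1 and Sult4a1, are limited by depth, since 3 counts correspond to 0.134 to 0.202 CPM.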

Other observations

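Some members varied widely within a group, and are given as values. Cyp26b1, which degrades retinoic acid, had 17.3, 9.70 and 25.3 CPM in BSYQF lungs, 11.04, 3.50 and 42.0 CPM in asthma lungs and 6.32, 143 and 7.13 CPM in control lungs. Control replicate 2 was above every other library. Fmo2 had 888, 787 and 1122 CPM in BSYQF lungs, 387, 260.2 and 988 CPM in asthma lungs and 2449, 1296 and 964 CPM in control lungs, highest in control replicate 1. Over the 88 tested members, the median log2 difference from the control mean was −0.42, −0.21 and 0.10 in asthma replicates 1, 2 and 3, and −0.17, 0.14 and 0.04 in BSYQF replicates 1, 2 and 3. In control replicates 1, 2 and 3 it was 0.09, −0.12 and −0.03.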
